A study of Mus musculus with 6 samples.

Results

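The AKT kinases and the mTOR branch downstream of them are represented here by 9 genes: Akt1 and Akt2, Mtor with its partners Rptor and Rictor, Tsc1, Tsc2 and Rheb, and Rps6kb1. Members were every non-control probe on the array that carried one of these gene names, which gave 18 probes of the 55681 on each array. Of these 18 probes, 15 were bright enough to be tested and 3 were not. Each probe is described separately, since probes of 1 gene read different stretches of its transcripts.

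Transcripts were measured with one-colour (Cy3) Agilent mouse arrays in 1676, a mouse pre-B cell line of genotype SLP-65-/- LAT-/-, grown with an excess of IL-7 supplied as J558L supernatant. Cells carried a retroviral control vector, a vector for hsa-miR-26a-2, or a sponge construct that binds and sequesters miR-26 family members, and all 3 groups were selected with puromycin at 1 µg/ml. Each group had 2 arrays, 1 from each of 2 independent experiments with clones made anew for each, so 6 arrays in all. By its label the line lacks both adaptors in all 3 groups, and the control was an empty vector, not a scrambled sponge. All 6 arrays were on 1 slide, where both control arrays held position 1, both miR-26a arrays position 2 and both sponge arrays position 4, so in every contrast group and slide position cannot be told apart. Each experiment filled its own slide row, so experiment and slide row cannot be told apart either.

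AKT kinases are switched on at the cell membrane by the lipid product of PI3K, and in B cell precursors they carry signals of the IL-7 receptor and the pre-B cell receptor for growth and survival. Active AKT phosphorylates TSC2, which releases RHEB to activate mTOR in its raptor complex (mTORC1), and mTORC1 then phosphorylates the S6 kinases and the brakes on translation. mTOR in its rictor complex (mTORC2) in turn phosphorylates AKT. Most of this signalling runs through phosphorylation, which an expression array does not read.

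The mature miRNAs are shown because the sponge was made against the family that shares their seed, and because the seed is the part that pairs with a target. RefSeq on GRCm38.p6 gives these mouse sequences, 5′ to 3′, with the seed (bases 2 to 8) in capitals.
mmu-miR-26a-5p: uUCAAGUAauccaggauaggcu
mmu-miR-26b-5p: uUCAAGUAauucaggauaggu
The miR-26a sequence is encoded at 2 loci, Mir26a-1 at chr9:119031811-119031832 and Mir26a-2 at chr10:126995543-126995564, and the miR-26b sequence at chr1:74394324-74394344, all on the plus strand. Both carry the seed UCAAGUA and differ at 2 of the 21 positions compared. The words TACTTGA and ACTTGAA, which pair with the seed or with the first base and most of the seed, were read on the transcript strand of the probes. They were in 0 of the 18 member probes, against 199 of 20168 tested probes (0.987%). A probe covers a short stretch, so this says nothing of the rest of the transcript.

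The labelled cell type was checked first. All 9 pre-B cell markers (Cd79a, Cd79b, Igll1, Vpreb1, Vpreb2, Pax5, Ebf1, Il7r and Dntt) were above background on all 6 arrays, with a summed signal of 462000 to 510000 per array and Vpreb1 the brightest on each. Among T cell markers 2 of 5 could be tested (Cd3e and Cd4), with summed signals of 1070 to 1420, and Cd3g and Cd8a were above background on 0 arrays. Among myeloid markers 3 of 6 could be tested (Elane, Csf1r and Itgam), with summed signals of 2950 to 4580, and Cebpa was above background on 0 arrays. Of the 4 erythroid and the 4 stromal markers 0 reached the limit for testing, with summed signals of 56.6 to 83.0 and of 23.3 to 35.7. No tested marker of these other cell types passed the test in any of the 3 contrasts, but Csf1r, Cd4 and Cd3e read lower on both sponge arrays than on the 4 others. Csf1r, a myeloid growth factor receptor, read 8.17 and 7.94 on control, 8.20 and 7.85 on miR-26a, and 7.21 and 7.54 on sponge arrays, with log2 changes of -0.69 for sponge against control (adjusted p = 0.223) and 0.65 for miR-26a against sponge (adjusted p = 0.0526). Cd4 gave -0.32 (adjusted p = 0.223) and 0.29 (adjusted p = 0.0598), and Cd3e -0.29 (adjusted p = 0.293) and 0.21 (adjusted p = 0.24). Other markers did not share this pattern: the tested Elane and Itgam overlapped between sponge and control arrays. Lyz2, too dim to be tested, read 4.13 and 3.07 on sponge, 3.56 and 1.57 on control, and 1.33 and 1.38 on miR-26a arrays. Each sponge array had 4 of the 6 myeloid markers above background, and each other array 3. The part of such cells in the results with the sponge arrays was not tested. In these bulk samples, fewer cells of a type and less RNA per cell cannot be told apart.

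Dntt, the polymerase that adds bases without a template at immunoglobulin gene joints, was the exception among the pre-B markers. Its log2 signal was 12.88 and 12.76 on the control arrays, 11.62 and 11.79 on the miR-26a arrays, and 12.91 and 12.87 on the sponge arrays. Dntt fell with miR-26a against control, with a log2 change of -1.12 (SE 0.09, adjusted p = 0.00538), and against sponge by -1.19 (SE 0.09, adjusted p = 0.00314). The other 8 pre-B markers did not pass in any contrast.

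The adaptors named in the genotype still gave signal. Blnk, the gene of SLP-65, read 15.37 and 15.60 on the control arrays, 14.90 and 15.08 on the miR-26a arrays, and 15.61 and 15.59 on the sponge arrays (log2). Blnk was lower with miR-26a than with control, by a log2 change of -0.49 (SE 0.09, adjusted p = 0.0272), and lower than with sponge, by -0.61 (SE 0.09, adjusted p = 0.0121). The fall against control did not pass without the replicate block (adjusted p = 0.106, over all alternatives 0.00871 to 0.414), nor without control replicate 1 (-0.56, adjusted p = 0.112) or 2 (-0.42, adjusted p = 0.192) or miR-26a replicate 1 (-0.45, adjusted p = 0.0688) or 2 (-0.53, adjusted p = 0.0519). The fall against sponge did not pass without sponge replicate 1 (-0.50, adjusted p = 0.0777) or 2 (-0.72, adjusted p = 0.0526), over all alternatives 0.00263 to 0.455. Lat had group means of 10.20, 10.13 and 10.23 on control, miR-26a and sponge arrays and did not pass in any contrast. Where these probes lie relative to the deleted stretches is not known, so the values check nothing about the deletions.

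Among the 15 tested member probes, Rptor fell and no other probe passed when miR-26a was set against control. Limma called 1 member probe lower, where 5.12% of all 20168 tested probes were called lower (1033), and 0 higher, where 4.6% were called higher (927). At an unadjusted p under 0.05, 3 member probes passed, 2 lower (Rptor and Tsc1) and 1 higher (Akt1), against 27.3% of all tested probes. The median log2 change of the 15 was 0.02 beside 0.01 over all tested probes, with a range of -0.36 to 0.23. Of the 15, 7 were below and 8 above 0. With no replicate block, limma called 0 members, beside 238 of all tested probes lower and 74 higher. The unpaired test and the test of the within-experiment log ratios called 0 members, and 0 of all tested probes, as did limma with no filter on dim probes; this holds for the other contrasts too.

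With the sponge against control, 0 member probes passed in limma in either direction. Over all tested probes, 0% were called lower (0) and 0.00992% higher (2). These counts became 25 and 10 with another background correction, and 20 and 13 with the contrast's arrays alone. At an unadjusted p under 0.05, 3 member probes passed, all lower (Akt1 and 2 probes of Akt2), against 16.0% of all tested probes. This count of 3 was 1 with 75th percentile scaling, with no replicate block and without either miR-26a array, 2 without sponge replicate 1, and 0 without either control array or without sponge replicate 2. With another background correction this count was 4, and it stayed at 3 with array weights and with the authors' processed values. At the same unadjusted threshold the unpaired test gave 3 member probes and the test of log ratios 1, and both gave 0 after adjustment. The smallest adjusted p among the members in limma was 0.257. Median change was -0.06 on the log2 scale beside 0.01 for all tested probes, with a range of -0.21 to 0.16. The largest 95% interval of a member reached 0.28 to each side of its estimate, so smaller changes in some members were beyond the reach of 2 arrays a group.

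Setting miR-26a directly against the sponge gave the most member calls: Rptor and Tsc1 lower, and Akt1 higher. The change in this contrast uses no control array, but its error does, since the spread was estimated over all 6 arrays. That is 2 of 15 lower, where 8.55% of all tested probes were called lower (1725), and 1 of 15 higher, where 8.22% were called higher (1657). At an unadjusted p under 0.05, 6 passed, 2 lower and 4 higher, against 34.4% of all tested probes. The median log2 change was 0.05 beside 0.02 over all tested probes, with a range of -0.40 to 0.40. With no replicate block, limma called 1 member lower and 1 higher, beside 632 and 358 of all tested probes. Each of the 3 calls was also lost without some single arrays, as given below for each gene. Both contrasts against control share the 2 control arrays, so each comparison's values are given side by side and not counted as separate evidence.

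**Figure D1:**
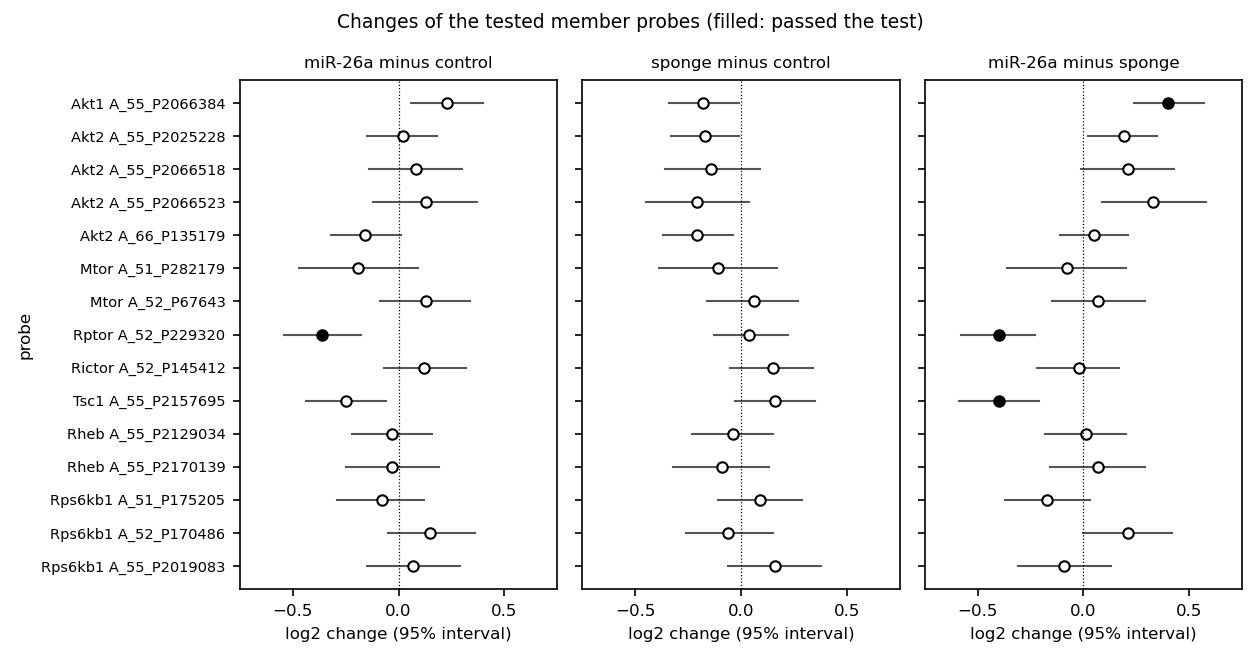
Log2 change (x axis) of each of the 15 tested member probes (y axis) in the 3 contrasts, with 95% intervals from limma over 2 arrays a group; filled points passed an adjusted p of 0.05. Rptor is the filled point at -0.36 against control and at -0.40 against sponge, Tsc1 is at -0.40 and Akt1 at 0.40 against sponge, and no point is filled for sponge against control.

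Akt1, the most widely expressed AKT kinase, was read by 1 probe, A_55_P2066384 at chr12:113892079-113892138 (mm9, minus strand). Its log2 signal was 14.37 and 14.33 on the control arrays, 14.55 and 14.60 on the miR-26a arrays, and 14.17 and 14.18 on the sponge arrays. The groups did not overlap, with miR-26a highest, control between and sponge lowest. Against sponge, Akt1 rose with miR-26a by 0.40 on the log2 scale (SE 0.07, 95% interval 0.24 to 0.57, 1.32-fold, adjusted p = 0.0181), and the difference was 0.38 in experiment 1 and 0.43 in experiment 2. Against control, neither the miR-26a value of 0.23 (adjusted p = 0.0969) nor the sponge value of -0.18 (adjusted p = 0.301) passed. The call against sponge was lost without miR-26a replicate 2 (0.37, adjusted p = 0.065), without sponge replicate 1 (0.41, adjusted p = 0.0985) and without sponge replicate 2 (0.40, adjusted p = 0.0917), within a range of 0.00866 to 0.437 over 18 alternatives, of which 11 kept it.

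Akt2, the AKT kinase best known for insulin signalling, was read by 4 probes, all on chromosome 7. Probes A_55_P2025228 and A_55_P2066518 share 53 bases of sequence and so are not separate readings, A_55_P2066523 lies elsewhere in the gene, and A_66_P135179 is assigned to another transcript. Probe A_55_P2025228 read 13.29 and 13.32 on control, 13.29 and 13.36 on miR-26a, and 13.10 and 13.17 on sponge arrays. Probe A_55_P2066523 read 10.44 and 10.60 on control, 10.61 and 10.68 on miR-26a, and 10.40 and 10.22 on sponge arrays. In both, the sponge arrays were the lowest, and the miR-26a and control arrays overlapped in the first and not in the second. Probe A_66_P135179 differed from these: it read 7.94 and 7.97 on control arrays, above 7.79 and 7.81 on miR-26a arrays and 7.72 and 7.78 on sponge arrays.

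None of the 4 Akt2 probes passed the test in any contrast. With the sponge against control, their log2 changes were between -0.21 and -0.14 (adjusted p 0.257 to 0.488). Without sponge replicate 2, A_55_P2066518 gave -0.05 and A_55_P2066523 -0.06, and without sponge replicate 1 they gave -0.22 and -0.36. A_55_P2066523 gave -0.31 without control replicate 1 and -0.10 without control replicate 2. With 75th percentile scaling A_55_P2025228 gave -0.08 and A_55_P2066518 -0.05. With miR-26a against control the 4 probes lay on both sides of 0, from -0.16 to 0.13 (adjusted p 0.203 to 0.901). The 0.13 of A_55_P2066523 was 0.02 without control replicate 1 and 0.23 without control replicate 2. A_55_P2066518 gave 0.08, but 0.20 without miR-26a replicate 1 and -0.04 without miR-26a replicate 2. Against sponge, miR-26a gave 0.05 to 0.33 (adjusted p 0.0748 to 0.63), and the largest value, of A_55_P2066523, passed with another background correction (0.32, adjusted p = 0.0424). That value was 0.48 without sponge replicate 1 (adjusted p = 0.0843) and 0.19 without sponge replicate 2 (adjusted p = 0.252).

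**Figure D2:**
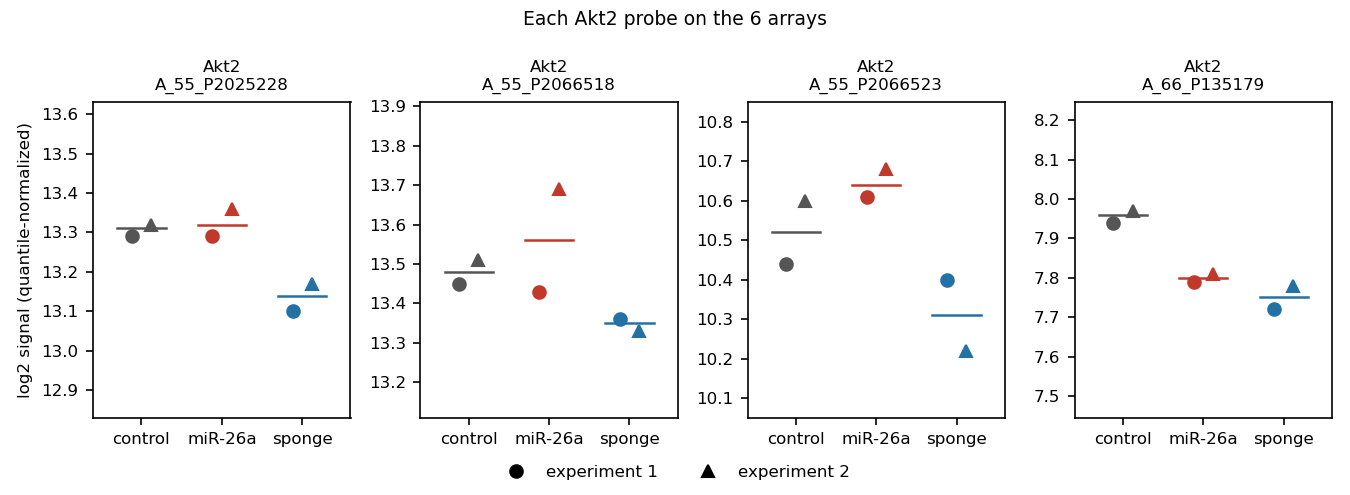
Log2 signal (y axis, each panel spans the same log2 range) of the 4 Akt2 probes on the 2 arrays of each group (x axis), with circles for experiment 1, triangles for experiment 2 and lines for group means. Sponge arrays are the lowest in each panel, and only the last panel, A_66_P135179, has both miR-26a arrays (7.79 and 7.81) below both control arrays.

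Mtor, the kinase shared by both mTOR complexes, was read by 2 probes on chromosome 4. Probe A_51_P282179 read 11.95 and 12.07 on control, 11.91 and 11.72 on miR-26a, and 11.79 and 12.00 on sponge arrays, so sponge and control overlapped. Its log2 changes were -0.19 with miR-26a (adjusted p = 0.336) and -0.11 with sponge (adjusted p = 0.644) against control, and -0.08 between the constructs (adjusted p = 0.651). Probe A_52_P67643, assigned to another transcript, gave 0.13, 0.06 and 0.07 in the same order (adjusted p 0.422 to 0.773). Over all 6 arrays the probes differed in sign in each of the 3 contrasts, and neither passed in any. These signs rested on single arrays in 2 contrasts: A_51_P282179 gave 0.01 for sponge against control without sponge replicate 1, and 0.10 and 0.05 for miR-26a against sponge without miR-26a replicate 2 and without sponge replicate 2. A_52_P67643 also changed sign without these arrays, to -0.05, -0.03 and -0.04 in the same order.

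Rptor encodes raptor, the scaffold that brings substrates to mTORC1, and its probe A_52_P229320 lies at chr11:119760596-119760655 (mm9, plus strand). Log2 signal was 12.79 and 12.77 on the control arrays, 12.41 and 12.43 on the miR-26a arrays, and 12.77 and 12.87 on the sponge arrays. Both miR-26a arrays were below all 4 others, and the control and sponge arrays overlapped. Rptor fell with miR-26a against control, with a log2 change of -0.36 (SE 0.07, 95% interval -0.54 to -0.18, 1.28-fold, adjusted p = 0.0368), and the experiments gave -0.38 and -0.34. Against sponge it also fell, with a change of -0.40 (SE 0.07, 95% interval -0.58 to -0.23, 1.32-fold, adjusted p = 0.0204). Sponge against control gave 0.04 (adjusted p = 0.795), with -0.02 in experiment 1 and 0.10 in experiment 2.

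How firmly Rptor passed depended on the array set and on the design of the test. The call against control was lost without the replicate block (-0.36, adjusted p = 0.0973) and without any 1 of the 6 arrays: control replicate 1 (-0.32, adjusted p = 0.262), control replicate 2 (-0.40, adjusted p = 0.179), miR-26a replicate 1 (-0.37, adjusted p = 0.0877), miR-26a replicate 2 (-0.35, adjusted p = 0.117), or either sponge array (-0.36, adjusted p = 0.063). Over 18 alternatives the adjusted p ranged from 0.0114 to 0.414 and 6 kept the call, with the log2 change between -0.40 and -0.32. The call against sponge was kept in 10 of 18 (adjusted p 0.00508 to 0.446). It was lost without miR-26a replicate 1 (-0.41, adjusted p = 0.0546) or 2 (-0.39, adjusted p = 0.0629), and without sponge replicate 1 (-0.45, adjusted p = 0.0859) or 2 (-0.35, adjusted p = 0.103).

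Rictor, the partner that defines mTORC2, did not pass in any contrast. Its probe A_52_P145412 read 8.76 and 8.87 on control, 8.88 and 8.99 on miR-26a, and 8.82 and 9.11 on sponge arrays. The sponge arrays overlapped both other groups. Log2 changes were 0.12 with miR-26a (adjusted p = 0.382) and 0.15 with sponge (adjusted p = 0.407) against control, and -0.02 between the constructs (adjusted p = 0.857).

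Tsc1 encodes hamartin, which stabilises TSC2 in the complex that keeps RHEB off, and its probe A_55_P2157695 lies at chr2:28546610-28546669 (mm9, plus strand). The control arrays read 10.56 and 10.55, the miR-26a arrays 10.39 and 10.22, and the sponge arrays 10.80 and 10.62 (log2). The groups did not overlap, with sponge highest, control between and miR-26a lowest, the reverse of the order for Akt1. With miR-26a against sponge, Tsc1 fell, with a log2 change of -0.40 (SE 0.08, 95% interval -0.59 to -0.21, 1.32-fold, adjusted p = 0.0246), and the experiments gave -0.42 and -0.39. Against control, miR-26a gave -0.25 (adjusted p = 0.105) and sponge 0.16 (adjusted p = 0.375), and neither passed.

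The Tsc1 call was lost without the replicate block (adjusted p = 0.0881), and 9 of 18 alternatives kept it (adjusted p 0.00439 to 0.437). It was lost without miR-26a replicate 1 (-0.43, adjusted p = 0.0521) or 2 (-0.37, adjusted p = 0.0778), and without sponge replicate 1 (-0.36, adjusted p = 0.133) or 2 (-0.45, adjusted p = 0.0891).

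Tsc2 encodes tuberin, the part of the complex that acts on RHEB. Its probe A_55_P2009434 was above background on all 6 arrays but did not reach the signal minimum of the test on enough of them, with a mean log2 signal of 5.85 ± 0.21 on control, 5.54 ± 0.09 on miR-26a and 5.69 ± 0.23 on sponge arrays (SD, n = 2 each). The sponge arrays overlapped both other groups, and no fold change is given for it.

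Rheb, the small GTPase that activates mTORC1, was read by 3 probes on chromosome 5. Probe A_55_P2129034 read 9.84 and 9.76 on control, 9.84 and 9.70 on miR-26a, and 9.90 and 9.63 on sponge arrays, and all 3 groups overlapped. Its log2 changes were -0.03, -0.04 and 0.01 (adjusted p 0.824 to 0.927), for miR-26a and sponge against control and for miR-26a against sponge. A_55_P2170139 shares 50 bases with it and gave -0.03, -0.09 and 0.07 (adjusted p 0.631 to 0.888). Both values against control with miR-26a turned to above 0 with 75th percentile scaling (0.01 and 0.02). The remaining Rheb probe, A_55_P2042688, was above background on 0 of the 6 arrays.

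**Figure D3:**
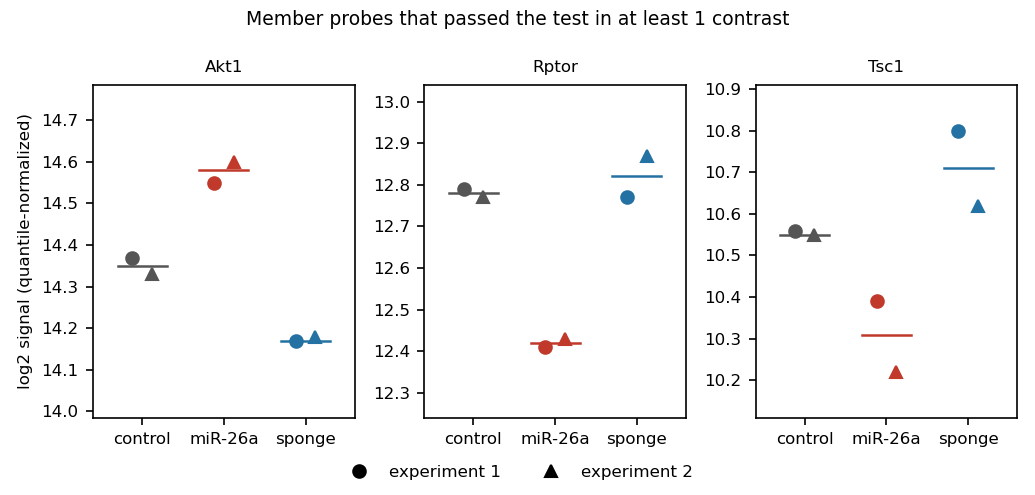
Log2 signal (y axis, the same log2 span in each panel) of the 3 member genes that passed in at least 1 contrast, on the 2 arrays of each group (x axis), with circles for experiment 1, triangles for experiment 2 and lines for group means. Akt1 is highest with miR-26a (14.55 and 14.60), while both miR-26a arrays of Rptor (12.41 and 12.43) and of Tsc1 (10.39 and 10.22) lie below the other groups.

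Rps6kb1, the S6 kinase phosphorylated by mTORC1, had 4 probes on chromosome 11, of which 3 were tested and 0 passed. A_55_P2019083 read 12.95 and 13.02 on control, 13.11 and 13.00 on miR-26a, and 13.25 and 13.04 on sponge arrays, and gave log2 changes of 0.07, 0.16 and -0.09 (adjusted p 0.418 to 0.669). A_51_P175205 gave -0.08, 0.09 and -0.17 (adjusted p 0.199 to 0.621). The order is miR-26a against control, sponge against control and miR-26a against sponge. Some signs rested on single arrays. For miR-26a against control, A_55_P2019083 gave -0.05 without control replicate 1 and A_51_P175205 gave 0.01 without control replicate 2. A_51_P175205 gave -0.0 for sponge against control without control replicate 1, and A_55_P2019083 0.0 for miR-26a against sponge without sponge replicate 1.

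The remaining tested Rps6kb1 probe, A_52_P170486, spans 1245 bases of genome with 60 bases of sequence at chr11:86346290-86347534 (mm9, minus strand), so it reads across an exon junction and not an intron. Its sequence is shown because it reads spliced transcript: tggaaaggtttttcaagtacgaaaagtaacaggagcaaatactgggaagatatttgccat. It read 7.63 and 7.62 on control, 7.90 and 7.65 on miR-26a, and 7.59 and 7.54 on sponge arrays. Both sponge arrays were the lowest, and log2 changes were 0.15, -0.06 and 0.21 (adjusted p 0.142 to 0.759). The value of this probe for sponge against control was 0.01 without control replicate 2. The last Rps6kb1 probe, A_52_P372321, was above background on 0 arrays.

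Of 78 further genes of the pathway, in 6 lists by role and each read by its brightest probe, all were on the array and 69 could be tested. With miR-26a against control, 3 fell (Trib3, Rragd and Sesn3; 4.35%, where 5.12% of all tested probes were called lower) and 1 rose (Prr5; 1.45%, where 4.6% were called higher), and the median log2 change was 0.04 beside 0.01 over all tested probes. With the sponge against control 0 passed in limma in each list, with a median of -0.03 beside 0.01. With miR-26a against sponge 6 fell (8.7%, beside 8.55% of all tested probes) and 5 rose (7.25%, beside 8.22%), with a median of 0.08 beside 0.02. These shares were near or below those over all tested probes, and the counts of the separate lists are read against the same shares. Rragd counts among the falls in both contrasts with miR-26a, but it entered the test only through control and sponge arrays. Its direction was thus set by the signal minimum, and no share is given without it. Inpp4b, Tcl1, Deptor, Prr5l, Ddit4l, Fnip2, Castor1, Grb10 and Foxo4 were not tested.

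**Figure D4:**
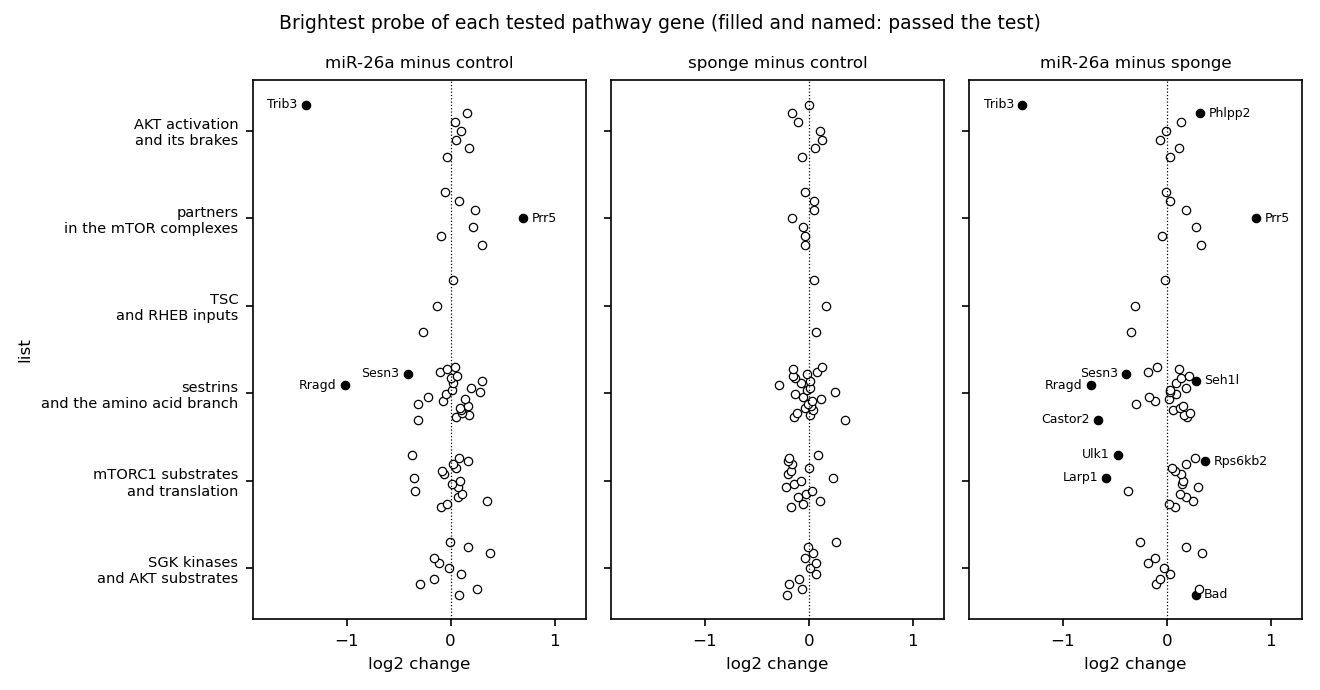
Log2 change (x axis) of the brightest probe of each of the 69 tested pathway genes, grouped by list (y axis), in the 3 contrasts; filled and named points passed an adjusted p of 0.05 in limma over 2 arrays a group. Trib3 lies farthest from 0, at -1.39 in both contrasts that hold the miR-26a arrays, and no point is filled for sponge against control.

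AKT activation and its brakes had 7 of 9 genes tested. For miR-26a against control 1 was lower (14.3%, beside 5.12% of all tested probes) and 0 higher (beside 4.6%), with a median of 0.05 beside 0.01. For sponge against control the median was 0.00 beside 0.01. For miR-26a against sponge 1 was lower (14.3%, beside 8.55%) and 1 higher (14.3%, beside 8.22%), with a median of 0.03 beside 0.02. Each share is 1 gene, so none is read as an excess. Trib3, a pseudokinase known to bind AKT and hold back its phosphorylation, read 9.73 and 9.91 on control, 8.21 and 8.65 on miR-26a, and 9.87 and 9.77 on sponge arrays. Both miR-26a arrays were below all others. Trib3 fell with miR-26a by the same log2 change against control (-1.39, SE 0.13, 2.62-fold, adjusted p = 0.00709) and against sponge (-1.39, SE 0.13, 2.62-fold, adjusted p = 0.00442). Both calls passed without any 1 of the 6 arrays and in 15 of 18 alternatives. Inppl1, a phosphatase that removes the lipid signal of PI3K, had the largest value above 0 against control, 0.18 (adjusted p = 0.234).

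Phlpp2, a phosphatase that removes an activating phosphate from AKT, rose with miR-26a against sponge by 0.32 (SE 0.07, 1.24-fold, adjusted p = 0.0405). The call was lost without the replicate block (adjusted p = 0.0857) and without any 1 of the 6 arrays (log2 change 0.25 to 0.38, adjusted p 0.0823 to 0.157), over alternatives that ranged from 0.0268 to 0.459. With sponge against control, the extremes of the list were Phlpp2 at -0.16 (adjusted p = 0.355) and Mtcp1 at 0.13 (adjusted p = 0.471), whose 3 dimmer probes gave -0.04, 0.14 and -0.20 (adjusted p 0.368 to 0.865).

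Partners in the mTOR complexes had 7 of 9 genes tested. With miR-26a 1 rose against control (14.3%, beside 4.6% of all tested probes) and 1 against sponge (14.3%, beside 8.22%). In both contrasts 0 fell (beside 5.12% and 8.55%). Each share of rises is 1 gene, so it is not read as an excess. List medians were 0.22 for miR-26a against control, -0.04 for sponge against control and 0.18 for miR-26a against sponge. Over all tested probes they were 0.01, 0.01 and 0.02. Prr5, a subunit of mTORC2 also named protor-1, read 8.75 and 8.36 on control, 9.34 and 9.17 on miR-26a, and 8.49 and 8.31 on sponge arrays. Both miR-26a arrays were above all 4 others, and control and sponge overlapped. Prr5 rose by 0.70 against control (SE 0.09, 1.63-fold, adjusted p = 0.0112) and by 0.86 against sponge (SE 0.09, 1.81-fold, adjusted p = 0.00489). Against control the call was lost without the replicate block (adjusted p = 0.0964, over all alternatives 0.00174 to 0.446) and without control replicate 2 (0.59, adjusted p = 0.0811). Against sponge it was lost without sponge replicate 1 (0.81, adjusted p = 0.0631) or 2 (0.91, adjusted p = 0.0549). Mapkap1, another mTORC2 subunit, gave -0.09 against control (adjusted p = 0.566) and -0.05 against sponge (adjusted p = 0.734). For sponge against control the extremes were Prr5 at -0.16 (adjusted p = 0.418) and Tti1, a cofactor of mTOR assembly, at 0.05 (adjusted p = 0.766).

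TSC and RHEB inputs had 3 of 4 genes tested and 0 passed in limma in any contrast. Medians were -0.13, 0.07 and -0.31 for miR-26a against control, sponge against control and miR-26a against sponge. These rest on 3 genes, and the medians over all tested probes were 0.01, 0.01 and 0.02. Ddit4, a stress-induced activator of the TSC complex, gave -0.27 with miR-26a against control (adjusted p = 0.419) and -0.34 against sponge (adjusted p = 0.259). These values differed between experiments: the differences were 0.04 and 0.06 in experiment 1 and -0.58 and -0.73 in experiment 2. Ddit4 read 13.05 and 13.49 on control, 13.09 and 12.91 on miR-26a, and 13.04 and 13.64 on sponge arrays. Without miR-26a replicate 1 the changes became -0.62 and -0.69, and without miR-26a replicate 2 they became 0.08 and 0.01. Against control the change was -0.38 without control replicate 1 and -0.16 without control replicate 2. Against sponge it was -0.58 without sponge replicate 1 and -0.10 without sponge replicate 2. Tbc1d7, a stable part of the TSC complex, gave 0.02, 0.05 and -0.02 (adjusted p 0.768 to 0.874), and Rhebl1, a relative of Rheb, gave 0.17 for sponge against control (adjusted p = 0.414).

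**Figure D5:**
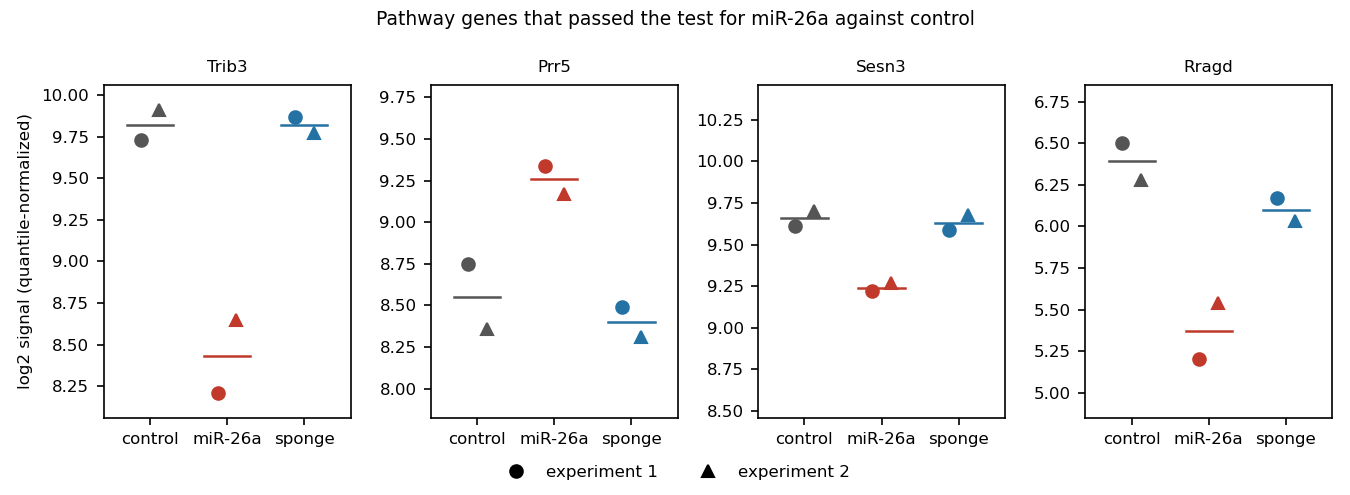
Log2 signal (y axis, the same log2 span in each panel) of the 4 pathway genes that passed for miR-26a against control, on the 2 arrays of each group (x axis), with circles for experiment 1, triangles for experiment 2 and lines for group means. Both miR-26a arrays lie below all 4 others for Trib3, Rragd and Sesn3 and above them for Prr5.

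Sestrins and the amino acid branch, which signal amino acid supply to mTORC1 at the lysosome, had 24 of 26 genes tested. With miR-26a against control 2 fell (8.33%, beside 5.12% of all tested probes) and 0 rose (beside 4.6%), with a median of 0.03. Against sponge 3 fell (12.5%, beside 8.55%) and 1 rose (4.17%, beside 8.22%), with a median of 0.08. The median for sponge against control was -0.01. Rragd is among the falls in both contrasts with miR-26a, and its direction was set by the signal minimum, as described below. The shares of falls are therefore not read as an excess over all tested probes. Rragd, a Rag GTPase that recruits mTORC1 to the lysosome, read 6.50 and 6.28 on control, 5.20 and 5.54 on miR-26a, and 6.17 and 6.03 on sponge arrays. It fell against control with a log2 change of -1.02 (SE 0.15, 2.03-fold, adjusted p = 0.0167) and against sponge with -0.73 (SE 0.15, 1.66-fold, adjusted p = 0.0287), and sponge against control gave -0.29 (adjusted p = 0.385). The probe was dim: both miR-26a arrays were under the signal minimum, and it entered the test only through the control and sponge arrays, so a probe kept this way had to read lower with miR-26a and its calls support little. With another background correction its change became -0.43 against control and -0.35 against sponge. Without miR-26a replicate 1, the change against sponge was -0.46 (adjusted p = 0.0365). The call against control was lost without control replicate 1 (-0.86, adjusted p = 0.0956) or 2 (-1.18, adjusted p = 0.0517) and without either sponge array (-1.02, adjusted p = 0.053). The call against sponge was lost without the replicate block (adjusted p = 0.0533, over all alternatives 0.00331 to 0.514) and without sponge replicate 1 (-0.62, adjusted p = 0.176) or 2 (-0.83, adjusted p = 0.11).

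Sesn3, a member of the sestrin family, read 9.61 and 9.70 on control, 9.22 and 9.27 on miR-26a, and 9.59 and 9.68 on sponge arrays. It fell with a log2 change of -0.41 against control (SE 0.07, 1.33-fold, adjusted p = 0.0216) and of -0.39 against sponge (SE 0.07, 1.31-fold, adjusted p = 0.0184). Without the replicate block neither passed (adjusted p 0.082 and 0.0587, over all alternatives 0.0125 to 0.407 and 0.0113 to 0.437). The call against control was lost without any 1 of the 6 arrays (-0.43 to -0.39, adjusted p 0.0521 to 0.172), and that against sponge without miR-26a replicate 2 (-0.37) or sponge replicate 1 (-0.40) or 2 (-0.38).

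Castor2, a relative of the arginine sensor Castor1 (on the array as Gatsl2), fell against sponge with a change of -0.66 (SE 0.10, 1.58-fold, adjusted p = 0.0133), and gave -0.31 with miR-26a (adjusted p = 0.109) and 0.35 with sponge (adjusted p = 0.233) against control. Its call was lost without the replicate block (adjusted p = 0.124, over all alternatives 0.00429 to 0.496) and without sponge replicate 1 (-0.79) or 2 (-0.53). Seh1l, a part of the GATOR2 complex and of the nuclear pore, rose against sponge by 0.28 (SE 0.07, adjusted p = 0.0454), and a dimmer Seh1l probe gave 0.19 (adjusted p = 0.165). That call was lost without the replicate block (adjusted p = 0.21), with 75th percentile scaling (0.23, adjusted p = 0.106) and without any 1 of the 6 arrays (0.24 to 0.33), and 3 of 18 alternatives kept it (adjusted p 0.0244 to 0.453). Against control, Seh1l gave 0.30 (adjusted p = 0.0545).

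mTORC1 substrates and translation had 17 of 18 genes tested, of which 0 passed in limma for miR-26a against control (median 0.02) and 0 for sponge against control (median -0.10). Against sponge, 2 fell (11.8%, beside 8.55% of all tested probes) and 1 rose (5.88%, beside 8.22%) with miR-26a. The median was 0.14 beside 0.02 over all tested probes. Larp1, which binds messages of the translation machinery, read 14.33 and 14.16 on control, 13.96 and 13.82 on miR-26a, and 14.69 and 14.25 on sponge arrays. It fell against sponge with a change of -0.58 (SE 0.10, 1.49-fold, adjusted p = 0.0181), but a dimmer Larp1 probe gave 0.12 (adjusted p = 0.247), and the average of both gave -0.23 (adjusted p = 0.0732). The call of the brighter probe was lost without sponge replicate 1 (-0.43, adjusted p = 0.0895) or 2 (-0.72, adjusted p = 0.0519) and without the replicate block (adjusted p = 0.11, over all alternatives 0.00238 to 0.489).

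Ulk1, the autophagy kinase that mTORC1 holds back, fell against sponge with a change of -0.47 (SE 0.09, 1.38-fold, adjusted p = 0.026), and gave -0.37 against control (adjusted p = 0.0605). The call was lost without the replicate block (adjusted p = 0.0551, over all alternatives 0.0114 to 0.446), without miR-26a replicate 1 (-0.49) or 2 (-0.45) and without sponge replicate 1 (-0.37) or 2 (-0.57). Rps6kb2, the second S6 kinase, rose against sponge by 0.37 (SE 0.08, 1.29-fold, adjusted p = 0.0337), and a dimmer Rps6kb2 probe gave 0.46 (adjusted p = 0.0127). The brighter probe's call was lost without the replicate block (adjusted p = 0.163, over all alternatives 0.0112 to 0.495), without either control array (0.37), without miR-26a replicate 1 (0.28) and without sponge replicate 1 (0.30) or 2 (0.44). Eif4a1, the RNA helicase of the cap-binding complex, had the largest value above 0 against control, 0.35 (adjusted p = 0.0673). For sponge against control, the extremes were Eif4ebp2 at -0.22 (adjusted p = 0.318) and Larp1 at 0.23 (adjusted p = 0.331).

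SGK kinases and AKT substrates had 11 of 12 genes tested, with 0 called by limma for miR-26a or sponge against control. Medians were -0.01 in both, beside 0.01 over all tested probes. For miR-26a against sponge 1 was higher (9.09%, beside 8.22% of all tested probes) and 0 lower (beside 8.55%), with a median of -0.03 beside 0.02. Bad, a cell death protein that AKT phosphorylates, rose against sponge by 0.28 (SE 0.07, 1.22-fold, adjusted p = 0.0454), and a dimmer Bad probe gave 0.39 (adjusted p = 0.0186). The brighter probe's call was lost without the replicate block (adjusted p = 0.0982), with 75th percentile scaling (0.23, adjusted p = 0.103) and without any 1 of the 6 arrays (0.26 to 0.31), and 3 of 18 alternatives kept it (adjusted p 0.0177 to 0.437). Cdkn1b, a cyclin-dependent kinase inhibitor, gave -0.29 with miR-26a against control (adjusted p = 0.121), and Sgk1, a kinase related to AKT, gave 0.38 (adjusted p = 0.0996). Without miR-26a replicate 1, Sgk1 became 0.56 (adjusted p = 0.023) against control, and 0.53 (adjusted p = 0.0238) in place of 0.34 (adjusted p = 0.0965) against sponge. Without miR-26a replicate 2 it became 0.19 (adjusted p = 0.352) and 0.15 (adjusted p = 0.382). For sponge against control the extremes were Bad at -0.21 (adjusted p = 0.268) and Tbc1d4 at 0.26 (adjusted p = 0.236), and Tbc1d4 was also the lowest for miR-26a against sponge at -0.26 (adjusted p = 0.0654), while a dimmer Tbc1d4 probe gave 0.16 (adjusted p = 0.365) and 0.09 (adjusted p = 0.425).

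For each member that passed, the genes whose log2 values over the 6 arrays were most like it were sought among 12448 other tested genes. The arrays fall into 3 groups, so these correlations describe a shared pattern of group levels and carry no p. Akt1 was closest to Zbtb7a and Scaf8 (Pearson r 0.9989 and Spearman rho 1 for each). Zbtb7a gave 0.33, -0.25 and 0.57 and Scaf8 0.14, -0.11 and 0.26, for miR-26a against control, sponge against control and miR-26a against sponge. Rptor was closest to Il16 (r 0.9994, rho 1) and Gm2436 (r 0.9982, rho 0.943), with changes of -0.36, 0.05 and -0.42 and of -0.39, 0.03 and -0.42. Tsc1 was closest to Vdac1 (r 0.9971, rho 1) and Bmi1 (r 0.9955, rho 1), with changes of -0.35, 0.20 and -0.54 and of -0.32, 0.20 and -0.51.

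The precision of all these values was limited by 2 arrays a group. Titles of the control arrays quote other records, and whether they were first deposited elsewhere is not known.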

How the data were processed

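A service provider hybridised 6 one-colour arrays, which were read with Feature Extraction, and the deposited scanner files hold spot intensity. The authors' deposited table holds quantile-normalized intensity on a linear scale. Processed signals of the scanner files were quantile-normalized between arrays, then log2-transformed, and repeated spots were then averaged. Spots flagged as outliers were left out, unless all spots of a probe on that array were flagged. Each array had 59305 non-control spots for 55681 probes, of which 28823 to 29800 were well above background, with 0 saturated. Replicate arrays correlated at 0.9957 to 0.9974 across probes, which are not independent replicates. Tested were 20168 probes with a signal above 50 on 4 or more arrays that also stood well above background on 1 or more. This minimum of arrays is not clear from the methods.

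Limma 3.58.1 in R 4.3.3 fitted group and experiment over all 6 arrays, with 3 contrasts, 2-sided tests and Benjamini-Hochberg adjustment over all tested probes at 0.05. On simulated arrays with the same design, the share of false calls at this threshold was above its nominal level, so the calls may be too lenient. Tables were made with python 3.11.15, numpy 2.4.6, pandas 2.3.3 and matplotlib 3.10.9. The experiment (replicate number) was a block because the methods normalize to the control of each experiment. Changes from the group mean correlated between groups within experiments at 0.379 to 0.588 across probes. Alternatives were 75th percentile scaling, normexp correction, 3 other filters, the authors' table, averaged probes, array weights, no replicate block, leaving out each array, the contrast's arrays alone, an unpaired test and a test of log ratios.

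Named were all member probes; of each pathway list, genes past an adjusted p of 0.05 and the largest fall and rise per contrast; the markers; and the 2 genes most correlated with each called member. Members and lists were chosen with earlier results of these data known. For 2 genes of the lists no result is reported here, and list counts and medians leave them out. RefSeq names and sequences (GRCm38.p6) were used for miRNAs alone. Probe positions are those of the scanner files (mm9). Scanner file headers name Feature Extraction 10.7.3.1, and the labels 10.7.1.1.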

Additional observations from a re-analysis of the deposited data

How the results depend on the processing

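Among the 270 values of the 15 member probes in each contrast, over 18 alternatives, 258 stayed on their side of the threshold for miR-26a against control, 270 for sponge against control and 245 for miR-26a against sponge. Most of these values belong to probes that did not pass, so the counts do not describe how firm the calls were. The Rptor call against control was kept in 6 of 18 alternatives. Against sponge the calls of Akt1, Rptor and Tsc1 were kept in 11, 10 and 9 of 18. No called member value changed sign, and values that did not pass changed sign 12, 9 and 13 times. The cause of the changes below was not tested, apart from the smaller number of arrays or the larger number of probes in some alternatives.

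For miR-26a against control, 1960 probes passed, and 312 passed with no replicate block, 565 when background on every array replaced the signal minimum (24972 probes tested), 2174 when every array had to pass both (19315 tested), 1047 with the contrast's arrays alone, and 0 with no filter, with the unpaired test and with log ratios. Leaving out 1 array gave 220 to 1559: 220 and 260 without control replicate 1 and 2, 1230 without miR-26a replicate 2 and 1047 without either sponge array. For sponge against control, 2 passed, and 12 did with 75th percentile scaling (5 lower, 7 higher), 35 with normexp, 5 with averaged probes, 33 with the contrast's arrays alone, 6 when every array had to pass both background and signal minimum, and 0 with background on every array in place of the minimum, with no filter, with the unpaired test and with log ratios. Leaving out 1 array gave 0 to 33: 5 without control replicate 1, 33 without either miR-26a array, and 0 without control replicate 2 or either sponge array. For miR-26a against sponge, 3382 passed, and 990 passed with no replicate block, 1523 with background on every array in place of the minimum, 3552 with both, 2203 with the contrast's arrays alone, and 0 with no filter, the unpaired test and log ratios. Leaving out 1 array gave 350 to 2359: 350 and 367 without sponge replicate 1 and 2, and 2203 without either control array. At an unadjusted p under 0.05 the unpaired test gave 2676, 1289 and 2736 probes in the 3 contrasts, log ratios 2425, 1493 and 2262, and no filter 6501, 4306 and 7633.

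Of member probes, 1 passed for miR-26a against control, 1 when every array had to pass background and signal minimum, and 0 with no replicate block, no filter, background on every array in place of the minimum, the contrast's arrays alone, the unpaired test or log ratios, and 0 to 0 when 1 array was left out. For sponge against control 0 passed in limma under all these alternatives. For miR-26a against sponge 3 passed, and 2 with no replicate block, 4 with normexp, 3 when every array had to pass both, and 0 with no filter, background on every array in place of the minimum, the unpaired test or log ratios. Leaving out 1 array gave 0 to 3: 3 without either control array, 1 without miR-26a replicate 1, and 0 without miR-26a replicate 2 or either sponge array. Where an array was left out, the lone array of its group was assumed to vary like the others.

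Of pathway genes, 4 passed for miR-26a against control, 2 with no replicate block and 8 with the mean of a gene's probes; 11 passed for miR-26a against sponge, and 2 with no replicate block. The named pathway genes, Dntt and Blnk were taken through the other alternatives as a choice made after seeing the data. With no array left out, Seh1l and Ulk1 passed against control under 4 of these, Eif4a1 under 3 and Larp1 under 1, and against sponge Eif4ebp2 under 1. Ddit4 and Sgk1 depended on which miR-26a array was left out, as given above. Scaling by the 75th percentile moved the median of all probes by 0.018, 0.034 and -0.012 (log2). Signal over background left 2 of the 18 member probes with no readable array. Tsc2 was above background but did not reach the signal minimum on enough arrays. Where it entered the test (background in place of the minimum, or no filter), it was among the probes that did not pass.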
